A study of Mus musculus with 6 samples.

Results

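The unfolded protein response and the integrated stress response were described here through 34 genes, listed by symbol, of the 32285 genes in the matrix of a mouse tumor. All 34 symbols were present and all 34 had at least 50 counts over the cells kept, so that no listed gene dropped out on low values. By role, 14 genes encode chaperones and folding enzymes of the endoplasmic reticulum (ER), 4 belong to ER-associated degradation (ERAD) or are its regulator Xbp1, 8 are regulators of the integrated stress response (ISR), and 8 make or import amino acids or run the mitochondrial folate steps that use serine. Ddit3 carried 2 gene identifiers, 1 of which had 0 counts.

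When client proteins misfold in the ER, the sensors ATF6, IRE1 and PERK raise chaperones and degradation factors and lower new protein synthesis. PERK shares its target, the initiation factor eIF2, with kinases that sense lack of amino acids, lack of heme or viral RNA, and their common output is the transcription factor ATF4. ATF4 in turn is known to raise amino acid synthesis and transport, tRNA charging and, through DDIT3 and PPP1R15A, cell death and the recovery of translation.

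The tumors were grown from MOC-2, which is 1 mouse head and neck squamous carcinoma line, injected under the skin of the back or hindquarters of male mice. The labels list 3 vehicle tumors (described as DMSO) and 3 treated tumors ("experimental agent"), all taken 24 hours after injection into the tumor. The agents named for the study were copper(II) diethyldithiocarbamate, 2-C1-IB-MECA, 2'3'-c-di-AM(PS)2, 5'ppp-dsRNA/Lyovec, R848, galunisertib, epcadostat, Nw-Hydroxy-nor-L-arginine, L-NMMA, clodronate and 4-1BB ligand, and no label says which of them a treated tumor received. Live cells of the 6 tumors were sorted on a viability dye, tagged, pooled and sequenced as 3' ends of single-cell transcripts. The cell barcodes end in a suffix from 1 to 6, called a barcode set here, and no label ties a set or a tag to a tumor, so treated and vehicle tumors could not be compared and no test between them was run.

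The matrix held 14818 cells, of which 13738 were kept, and the gene counts (unique molecular identifiers, UMIs) summed to between 7354560 and 38798439 per set. No barcode sequence was shared between sets. Cells were assigned by marker genes: 9371 carcinoma cells, gated on Xist or carcinoma markers and on 0 counts of 4 Y-linked genes (Xist at 1129 CPM, counts scaled to a common total), and 12 host classes together holding 3221 cells. C1q-positive macrophages (1043 cells), monocytic cells (632), T cells (467), NK cells (311), osteoclast-like cells (219) and fibroblasts (185) were large enough to set beside the carcinoma cells, and these are called the 7 large classes. Median UMIs per cell differed from 11150 in carcinoma cells to 2004.5 in monocytic cells. Markers of other classes were counted in each. Monocytic markers summed to between 1514 and 2424 CPM in fibroblasts, NK cells and T cells, against 13180 in monocytic cells. They include Plac8, not used in the gate, and whether such counts were RNA of other cells was not tested. Prl2c2 and Prl2c3, which are carcinoma transcripts here, summed to 84.2 CPM in NK cells against 301 in carcinoma cells. With Tslp and Tac1 the sum was 540 CPM in NK and 681 in carcinoma cells, and 19.1 to 256 in other large host classes. The NK gate excluded Xist counts but needed no Y-linked count, so carcinoma cells without Xist counts could be gated as NK cells. Their part in the NK values was not tested. Monocytic cells of barcode set 6 stood apart in the ISR genes: summed over the 8 regulators, their level was 1632 CPM in that set and between 665 and 862 in the other sets. In macrophages the sum was 1231 CPM in set 6 and 1131 in set 3. A level below is a CPM value, in brackets its exact Poisson 95% interval, which covers counting error only. A ratio is the median over barcode sets of the log2 ratio of CPM, and a gene is called higher or lower where that median passes 1.5-fold.

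Sequence elements known to drive these genes were looked for in the RefSeq promoters of mouse build GRCm38.p6, from 250 bases before to 50 bases after each start, on both strands. Promoters were found for 31 of the 34 genes, with 2 promoters for 2 of them. The ER stress response element, CCAAT and CCACG separated by 9 bases, bound by NF-Y and ATF6, was in 7 of the 12 chaperone genes with a promoter (Hspa5, Hsp90b1, Calr, Canx, Pdia6, Creld2 and Dnajc3) and in 0 genes of the other roles, while 0.119% of 32851 promoters held it. The related ERSE-II, ATTGG and CCACG separated by any base, was in Dnajb11 and Herpud1, against 0.0365% of promoters. The C/EBP-ATF response element TGATGNAA, bound by ATF4 heterodimers, was in Asns, Chac1, Trib3 and Herpud1, against 3.97% of promoters. That is 1 of 7 amino acid genes, 2 of 8 ISR regulators and 1 of 4 ERAD genes with a promoter, and 0 of 12 chaperones. The XBP1 core TGACGTGG was in 0 of the members and in 0.676% of promoters. Elements of different kinds did not overlap in the members. The stretches below show examples of promoters with an ER stress element or an ATF4 element, with the element in capitals on either strand.
Hspa5, chr2:34772000-34772068, plus strand: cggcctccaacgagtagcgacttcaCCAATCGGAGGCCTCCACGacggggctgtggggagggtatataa
Hsp90b1, chr10:86705508-86705681, minus strand: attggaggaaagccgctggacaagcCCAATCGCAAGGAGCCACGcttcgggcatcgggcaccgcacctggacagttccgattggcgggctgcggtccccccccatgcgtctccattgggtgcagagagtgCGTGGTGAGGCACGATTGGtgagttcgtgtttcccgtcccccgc
Calr, chr8:84847050-84847118, minus strand: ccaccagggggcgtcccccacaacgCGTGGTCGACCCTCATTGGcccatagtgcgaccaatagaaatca
Pdia6, chr12:17266466-17266534, plus strand: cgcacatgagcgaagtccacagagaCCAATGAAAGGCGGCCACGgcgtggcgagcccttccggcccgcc
Herpud1, chr8:94386292-94386412, plus strand: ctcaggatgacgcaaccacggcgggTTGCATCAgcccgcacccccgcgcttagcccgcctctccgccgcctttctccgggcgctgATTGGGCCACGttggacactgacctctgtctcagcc
Asns, chr6:7693210-7693257, minus strand: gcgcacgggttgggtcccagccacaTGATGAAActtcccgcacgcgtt
Chac1, chr2:119351024-119351081, plus strand: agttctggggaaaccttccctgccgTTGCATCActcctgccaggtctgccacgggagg
Hsp90b1 holds the ER stress element in both orientations, and Herpud1 holds an ATF4 element (first run of capitals) upstream of an ERSE-II (second run). These matches describe letters in a window and say nothing of binding in these cells.

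Across the 7 large classes the chaperones were the most even of the 4 roles and the amino acid genes the most uneven. The ratio of the highest to the lowest class had a median of 1.67-fold over the 14 chaperones (range 1.25 to 2.64), 2.41-fold over the 4 ERAD genes (2.14 to 4.57), 2.98-fold over the 8 ISR regulators (1.69 to 20.3) and 5.44-fold over the 8 amino acid genes (2.54 to 26.9). The same ratio had a median of 4.08-fold over 14472 genes. Genes with few counts in a class have a wider ratio from counting error alone. Of the 34 genes, 12 were highest in fibroblasts, 7 in carcinoma cells, 5 in NK cells, 4 in monocytic cells, 3 in T cells, 3 in osteoclast-like cells and 0 in macrophages. Over all 14472 genes the shares were 18.3% in fibroblasts, 23.7% in carcinoma cells, 8.73% in NK cells, 8.59% in monocytic cells, 18.6% in T cells, 15.2% in osteoclast-like cells and 6.88% in macrophages. Fibroblasts thus led for 12 of 34 members (6 chaperones, 2 ERAD genes, 3 ISR regulators and 1 amino acid gene), and 4 of the 7 members that led in carcinoma cells were amino acid genes. Leaving out each barcode set in turn, fibroblasts led for 9 to 13 members, carcinoma cells for 6 to 8 and NK cells for 4 to 7. Without set 3, fibroblasts led for 9 and NK cells for 7, and without set 6 macrophages led for 1.

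**Figure D1:**
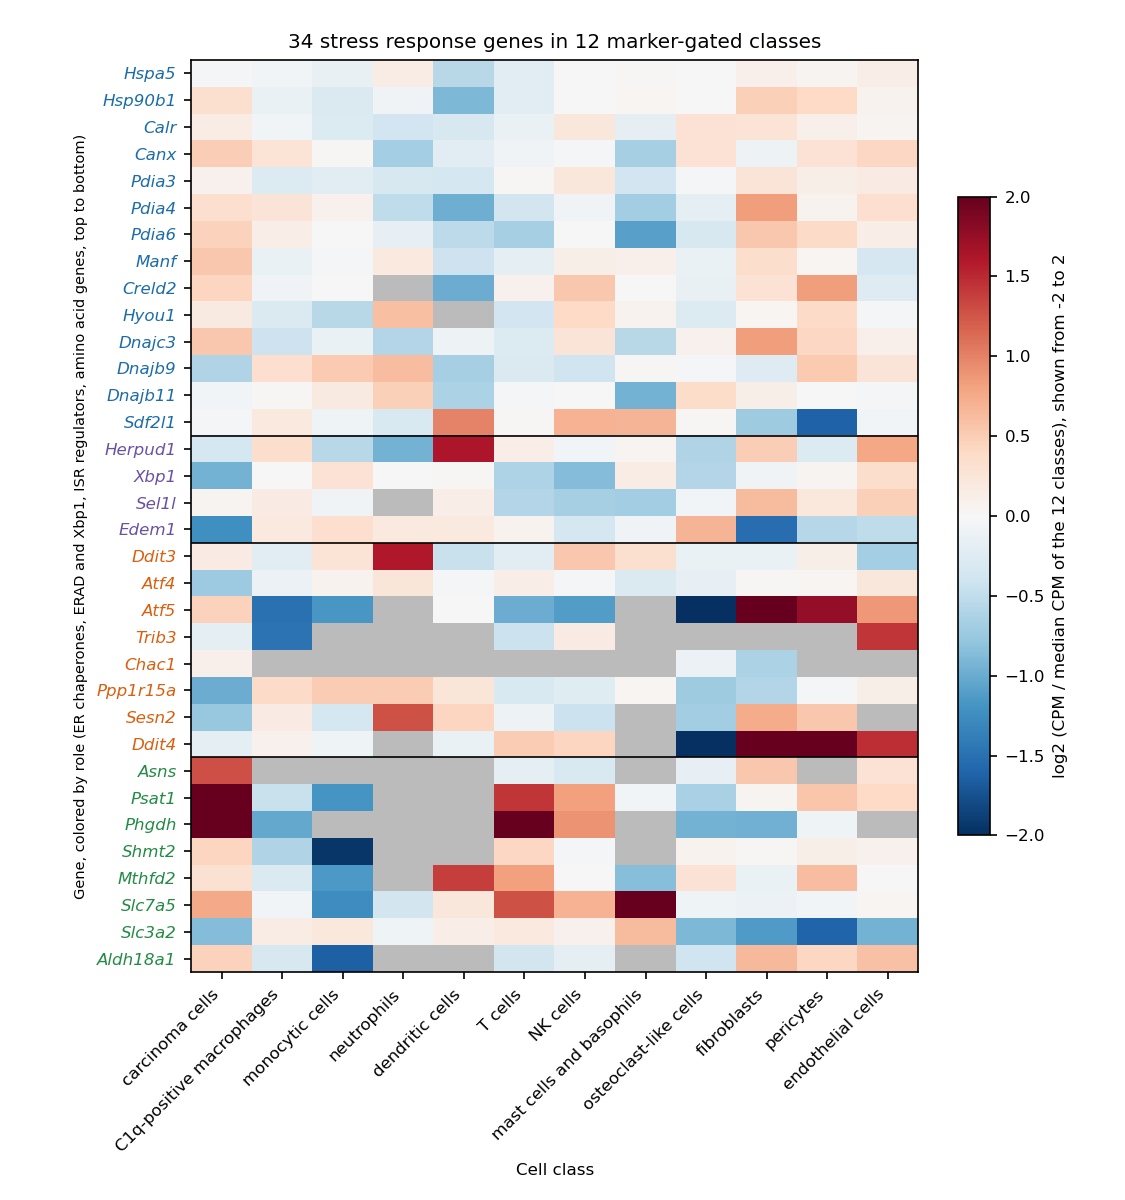
Levels of the 34 genes (rows, colored and separated by role) in the 12 cell classes of at least 50 cells (columns), as log2 of the CPM over the gene's median CPM of the 12 classes; grey marks classes with at most 3 counts of a gene. The rows of Hspa5, Calr and Pdia3 are pale throughout, with ranges of 1.62-, 1.59- and 1.56-fold over the 12 classes, while Hyou1 spans 4.46-fold and Sdf2l1 6.12-fold, and Psat1, Phgdh, Atf5 and Ddit4 run from strong blue to strong red.

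Hspa5, the ER Hsp70 (BiP) that binds unfolded chains and holds the sensors inactive, was nearly level across the 7 large classes. Its level was 1126 CPM (1120 to 1132) in carcinoma cells, with the sets at 1023, 1086 and 1267 (lowest, median, highest), and it ranged from 989 in T cells to 1231 in fibroblasts, a ratio of 1.25. The sets of all 7 large classes overlapped. Hsp90b1, the ER Hsp90 (GRP94), was 1062 CPM in carcinoma cells (sets 839, 957 and 1318), 1184 in fibroblasts (sets 999, 1063 and 1508) and 691 in monocytic cells (sets 523, 729 and 758). The monocytic sets all lay below those of carcinoma cells and fibroblasts, with no overlap. The lectin chaperones Calr and Canx, which retain unfinished glycoproteins, had their highest large-class levels in osteoclast-like cells (Calr, 812 CPM) and in carcinoma cells (Canx, 582 CPM, sets 472 to 638). Manf, an ER-resident protein that can be secreted, was 515 CPM in carcinoma cells and between 315 and 456 in the other large classes.

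Folding enzymes and co-chaperones differed somewhat more. Pdia4 and Pdia6, disulfide isomerases, were 199 and 361 CPM in fibroblasts and 85.9 and 157 in T cells. Pdia3, the isomerase that works with the lectin chaperones, was 565 CPM in fibroblasts and 390 in macrophages. Dnajc3, a J protein that also restrains PERK, was 208 CPM in fibroblasts (185 to 232) and 87.7 in macrophages (77.1 to 99.4). Sdf2l1, a partner of the ER J protein Dnajb11, had the widest range of the chaperones: 108 CPM in NK cells (sets 25.6, 91.0 and 175) and 40.9 in fibroblasts (sets 25.4, 38.8 and 43.4). The NK sets spread over that whole range, so this contrast overlaps between sets. Hyou1, an ER nucleotide exchange factor, and Creld2, an ER disulfide isomerase, were both at 46.5 CPM in NK cells, with lowest levels of 24.2 in monocytic cells and 28.7 in osteoclast-like cells. Dnajb11 stayed between 78.3 CPM in carcinoma cells and 105 in osteoclast-like cells. Dnajb9, a co-chaperone that returns IRE1 to its inactive form, had, like Dnajb11, its lowest large-class level in carcinoma cells, at 92.4 CPM (90.7 to 94.2), and was 201 CPM in monocytic cells (179 to 225).

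Summed, the ERAD genes were lowest in carcinoma cells and highest in macrophages and monocytic cells among the 7 large classes. Their level was 282 CPM in carcinoma cells (sets 250 to 304), 528 in macrophages (sets 494 to 596) and 521 in monocytic cells (sets 440 to 575), with no overlap of either with the carcinoma sets. Edem1, a mannosidase-like protein that passes misfolded glycoproteins to degradation, was 259 CPM in osteoclast-like cells (sets 171, 251 and 355) against 56.7 in fibroblasts and 69.2 in carcinoma cells (sets 54.8, 68.2 and 74.1). Xbp1, whose spliced form is the transcription factor of the IRE1 branch, was 204 CPM in monocytic cells, 167 in macrophages and 87.0 in carcinoma cells (sets 74.4, 89.0 and 92.7). The 3' counts do not tell spliced from unspliced Xbp1. Herpud1, a membrane protein of the degradation complex, reached 282 CPM in the 72 dendritic cells and 130 in fibroblasts, against 72.1 in carcinoma cells. Sel1l, the adaptor of the ubiquitin ligase Syvn1, was 80.5 CPM in fibroblasts and 32.5 in NK cells, whose sets ran from 7.99 to 74.3.

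ISR regulators summed to 458 CPM in carcinoma cells (sets 397 to 500), to 516 in osteoclast-like cells and to between 683 and 857 in the other large classes. The sets of macrophages (596 to 1231), monocytic cells (665 to 1632), NK cells (582 to 894) and fibroblasts (655 to 929) all lay above the carcinoma sets, whereas those of T cells (464 to 1044) and osteoclast-like cells (479 to 552) overlapped them. Ppp1r15a (GADD34), the phosphatase subunit that reverses eIF2 phosphorylation, was 438 CPM in monocytic cells (sets 306, 469 and 700) and 154 in carcinoma cells (sets 132, 157 and 179). Atf4 mRNA was 311 CPM in T cells (sets 234, 269 and 425) and 173 in carcinoma cells (sets 155, 175 and 185). ATF4 is controlled mainly at translation, which mRNA counts do not measure. A list of 9 early response genes often raised by tissue dissociation summed to 7582 CPM in macrophages (sets 6359 to 10404), 7657 in monocytic cells (sets 5836 to 10529) and 4457 in carcinoma cells (sets 3323 to 5670), and its part in the Ppp1r15a values was not tested.

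Ddit3 (CHOP), the death-linked factor downstream of ATF4, showed the narrowest range of the ISR regulators, from 47.6 CPM in macrophages to 80.5 in NK cells, with 61.5 in carcinoma cells (sets 36.2, 61.5 and 81.5). Ddit4 (REDD1), an inhibitor of mTORC1, was 144 CPM in fibroblasts (sets 108, 164 and 173) and 248 in the 59 pericytes, against 31.5 in carcinoma cells (sets 26.8, 32.9 and 43.0) and 8.13 in osteoclast-like cells. Atf5, an ATF4 relative known for the mitochondrial stress response, was 66.0 CPM in fibroblasts (sets 48.4, 62.8 and 70.1), 22.1 in carcinoma cells (sets 17.1, 21.4 and 24.7) and between 3.25 and 8.08 in the other large classes. The fibroblast sets of both Ddit4 and Atf5 did not overlap those of carcinoma cells. Chac1, an enzyme that degrades glutathione, and Trib3, a pseudokinase that restrains ATF4 and DDIT3, were rare, at 4.43 and 3.48 CPM in carcinoma cells, and no host class of the 7 had more than 7 counts of either.

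**Figure D2:**
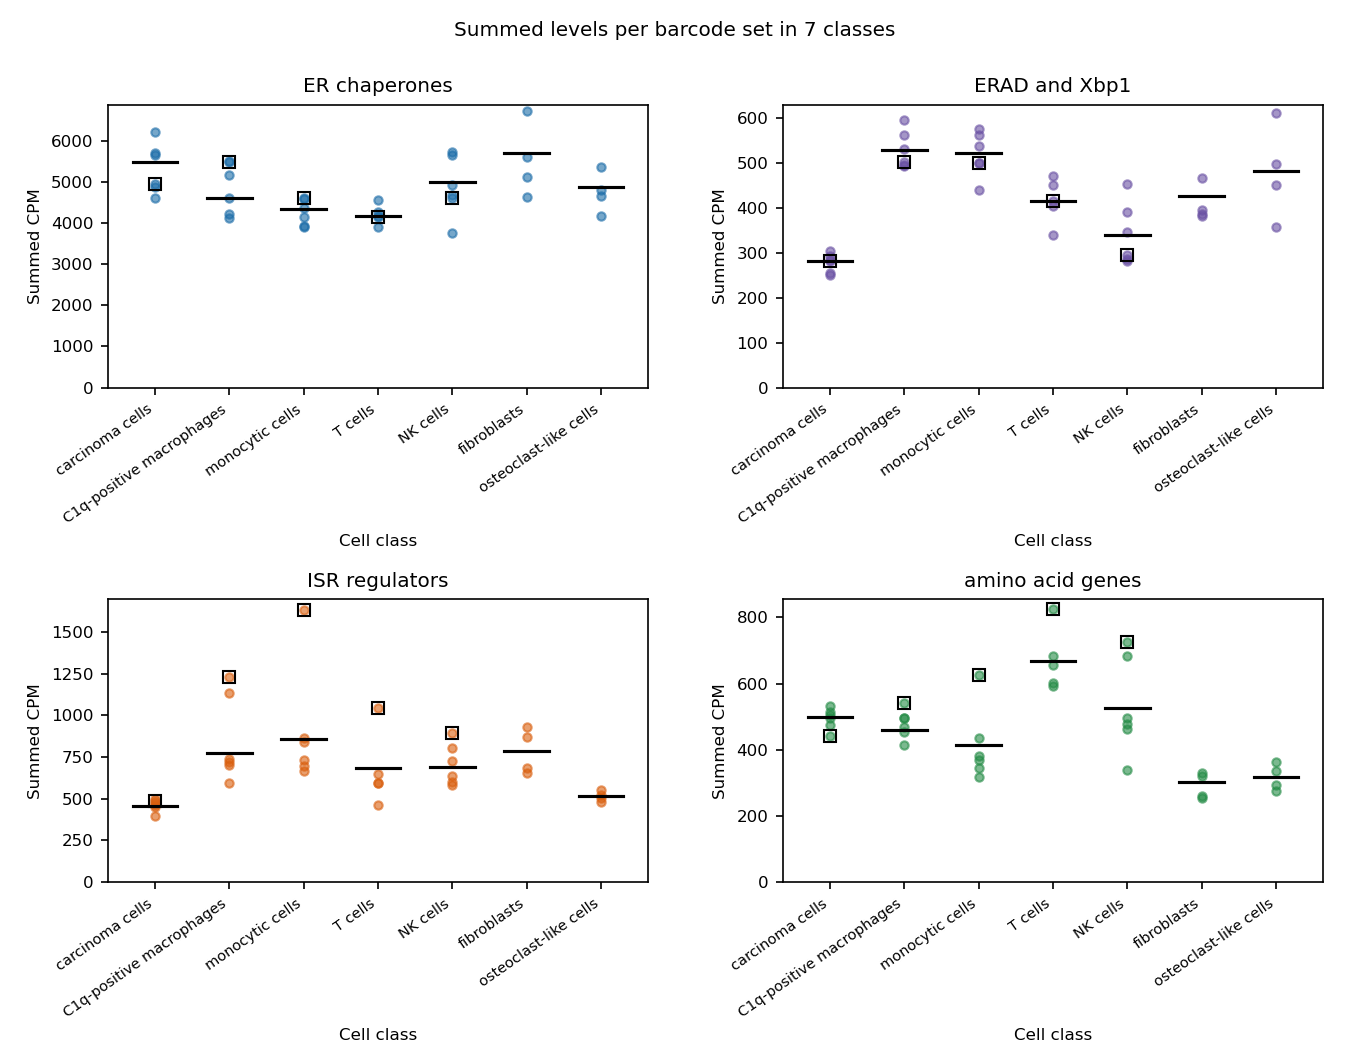
Summed CPM of the genes of each role (panels) in the 7 large classes; each point is a barcode set with at least 20 cells of the class, a bar is the pooled level, and squares mark barcode set 6. Chaperone sums lie between 3771 and 6729 CPM in all sets shown, ERAD and ISR sums are lowest in carcinoma cells, and set 6 is the highest ISR point in macrophages, monocytic cells, T cells and NK cells.

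The serine pathway enzymes Phgdh and Psat1, the asparagine synthetase Asns and the mitochondrial serine hydroxymethyltransferase Shmt2 had their highest large-class levels in carcinoma cells. Phgdh was 52.7 CPM in carcinoma cells (sets 39.0, 51.8 and 63.1), 50.7 in T cells (sets 32.4, 56.2 and 97.6) and 1.96 in monocytic cells. Carcinoma and T cell sets overlapped for this gene, and all carcinoma sets lay above those of macrophages, monocytic cells, osteoclast-like cells and fibroblasts. Psat1 was 88.1 CPM in carcinoma cells (sets 71.4, 93.9 and 99.8), 59.5 in T cells (sets 49.6, 51.7 and 73.5) and 9.80 in monocytic cells. Asns was 26.7 CPM in carcinoma cells (sets 21.8, 26.3 and 31.7) and rested on 1 count in 1043 macrophages and 3 in 632 monocytic cells, whereas fibroblasts had 15.8 CPM. The folate enzyme Mthfd2 was highest of the large classes in T cells, at 84.4 CPM (69.7 to 101), against 59.3 in carcinoma cells and 21.6 in monocytic cells. Aldh18a1, which starts proline synthesis, was 22.4 CPM in fibroblasts and 19.6 in carcinoma cells.

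Slc3a2 (CD98hc), the heavy chain that brings several amino acid transporters to the membrane, was 168 CPM in carcinoma cells (sets 149, 164 and 187) and 356, 349, 341 and 324 CPM in monocytic cells, T cells, macrophages and NK cells. Slc7a5 (LAT1), its light chain for large neutral amino acids, was 52.3 CPM in carcinoma cells, 74.9 in T cells and 13.1 in monocytic cells (sets 5.87, 11.0 and 57.4). Thus monocytic cells had the highest Slc3a2 level and the lowest Slc7a5 level of the 7 large classes, and Slc3a2 also pairs with light chains such as Slc7a11. In the 71 mast cells and basophils both chains were high, with Slc3a2 at 473 CPM and Slc7a5 at 298.

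In carcinoma cells against all other kept cells within the same barcode set, 3 of 8 amino acid genes were higher, 3 of 8 ISR regulators were lower and 1 higher, and 13 of 14 chaperones were within 1.5-fold. This comparison is with 4367 cells, of which 1146 were mixed or ungated and held 41.6% of the UMIs. Xist was at 772 CPM in the mixed and 552 in the ungated cells, against 1129 in carcinoma cells, so these other cells held carcinoma RNA. Of all 13169 genes with enough counts, 20.4% were higher and 22.1% lower in carcinoma cells, with a median log2 ratio of 0.10. Among the 8 amino acid genes, 3 were higher (Asns 1.29, Psat1 1.27 and Phgdh 1.25) and 0 lower. Each of these 3 was above 0 in 6 of 6 sets, the lowest set being 0.95 for Asns, 0.93 for Psat1 and 0.71 for Phgdh. Shmt2 (0.46) and Aldh18a1 (0.44) were above 0 in every set but within 1.5-fold, and Slc3a2 (-0.48) was below 0 in every set. Mthfd2 (0.07) was above 0 in 3 sets and below in 3.

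Of the 14 chaperones, 0 were higher and 1 was lower, Dnajb9 at -0.60 (sets -0.72 to -0.46). That call was close to the limit and was lost without set 2, set 5 or set 6; over 14 alternatives the ratio stayed between -0.65 and -0.45 and passed in 9. The median of the 14 was 0.07, and Hspa5 stood at -0.01 (sets -0.31 to 0.12). Canx (0.30), Manf (0.36) and Dnajc3 (0.30) were above 0 in all 6 sets and within 1.5-fold. Of the 4 ERAD genes, Edem1 (-1.0, sets -1.53 to -0.87) and Xbp1 (-0.60, sets -1.04 to -0.38) were lower, and Herpud1 (-0.46) was below 0 in 6 of 6 sets. The Xbp1 call was lost without set 3, set 4 or set 5.

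Of the 8 ISR regulators, 3 were lower and 1 was higher in carcinoma cells. Ppp1r15a (-0.82, sets -1.23 to -0.67), Ddit4 (-0.83, sets -1.22 to -0.55) and Sesn2 (-0.67, sets -1.13 to -0.39), a stress-induced inhibitor of mTORC1, were lower in 6 of 6 sets. Atf4 (-0.57, sets -1.06 to -0.33) was below 0 in 6 of 6 sets and just within 1.5-fold. It passed 1.5-fold in 7 of 14 alternatives, so its place beside the limit is not firm. Chac1 was higher at 0.88, from 530 counts in carcinoma cells and 56 in the others, with sets from -0.67 to 1.62. Ddit3 (-0.06) and Atf5 (0.14) were within, with sets on both sides of 0. Against the host classes alone, where the background is 28.7% higher and 24.4% lower, Atf4 and Slc3a2 were lower as well and Aldh18a1 higher.

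**Figure D3:**
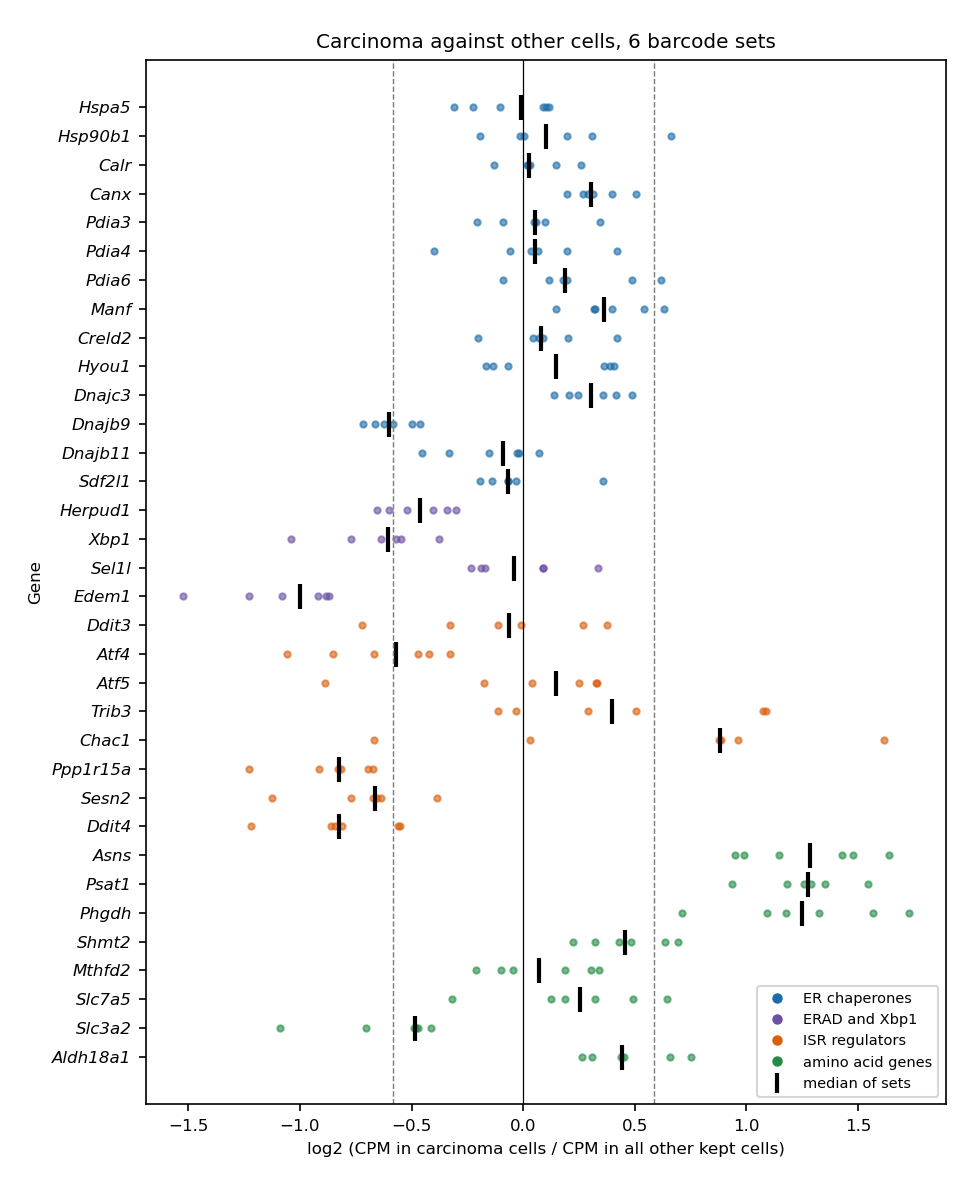
Log2 ratio of the CPM in carcinoma cells to that in all other kept cells for the 34 genes, with 1 point per barcode set, a bar at the median and dashed lines at 1.5-fold. Asns, Psat1 and Phgdh have all 6 points to the right of the dashed line, Edem1 and Ppp1r15a all 6 to the left, and Hspa5 is centred on 0.

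Against single host classes the amino acid enzymes differed most from myeloid cells and fibroblasts. Against macrophages (33.2% of genes higher and 22.1% lower), 6 of 8 amino acid genes were higher and Slc3a2 was lower. Against monocytic cells (36.2% and 22.0%), 6 of 8 were again higher and Slc3a2 lower. Against fibroblasts (29.1% and 18.0%), 6 of 8 were higher (Asns, Psat1, Phgdh, Shmt2, Mthfd2 and Slc7a5) and 0 lower, while 4 of the 6 ISR regulators with enough counts were lower (Atf4, Atf5, Sesn2 and Ddit4). Against T cells (29.8% and 25.3%), which have serine pathway transcripts of their own, 2 of 8 were higher (Asns and Aldh18a1) and Slc3a2 was lower. Against NK cells (27.9% and 17.1%) Asns, Psat1 and Phgdh were higher, and against osteoclast-like cells (32.3% and 21.0%) these 3 and Slc7a5. Asns was the amino acid gene higher in carcinoma cells in each of these 6 comparisons. Osteoclast-like cells were the class with most chaperones called: Pdia4, Pdia6, Manf, Creld2 and Sdf2l1 were higher in carcinoma cells and Dnajb9 lower. These 5 of 14 higher are near the 32.3% of all genes. Sdf2l1 (sets -0.43 to 1.54) and Pdia4 (sets -0.03 to 1.12) had sets on both sides of 0. Pooled over the sets compared, Sdf2l1 was 66.8 CPM in carcinoma cells and 67.8 in osteoclast-like cells. The 6 comparisons share the carcinoma cells.

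Other genes of these pathways are read against the same 20.4% and 22.1%. They were taken from lists that were chosen with earlier results of these data known. Of 14 sensors and processing factors, 0 were higher and 3 lower in carcinoma cells. These were Eif2ak3 (PERK, -0.69), Ppp1r15b (-0.70), the constitutive counterpart of Ppp1r15a, and Creb3l1 (-1.39), a membrane-bound factor of the ATF6 type. The best counted, Eif2s1 (eIF2 alpha, 0.41), Mbtps1 (site-1 protease, 0.57) and Creb3l2 (0.14), were within. Of 20 further ER folding genes, 2 were higher (Dnajc10 0.73 and Fkbp11 0.72) and 2 lower (Erp29 -0.64 and Ero1lb -1.12), with Ppib (0.32), P4hb (0.27) and Selenok (-0.09) within. Of the further ERAD genes with counts, 12 in all, Derl2 (0.60) and Erlec1 (0.71) were higher and 0 lower, and Vcp, the ATPase that extracts substrates, was at 0.18 and Ubxn4 at 0.15. The ratio of Derl3 was set by 3 counts or fewer per set and was not called. All 16 genes of ER translocation were within, Spcs3 at 0.53, Sec61g at 0.44, Ssr3 at 0.17 and Sec61b at 0.16.

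Of 18 transfer RNA synthetases, which ATF4 is known to raise, 4 were higher (Kars 0.90, Cars 0.78, Rars 0.75 and Lars 0.66) and 0 lower. The share called higher is near that of all genes, and their median was 0.36 against 0.10 for all genes. All 6 sets were above 0 for 15 of the 18, and for 30.7% of all genes. Eprs (0.33) and Nars (0.02) were within. Of the 22 further ATF4 targets with counts, 8 were higher and 5 lower. Cth (1.49), Stc2 (1.37), Slc1a4 (0.96), Slc6a9 (0.90), Psph (0.89), which completes serine synthesis, Nupr1 (0.86), Eif4ebp1 (0.77) and Vldlr (0.66) were higher. Gdf15, a secreted stress cytokine, was lower at -4.55 (sets -6.09 to -3.47), from 111 counts in carcinoma cells and 576 in the others. Slc7a11 (-2.17), the cystine transporter that pairs with Slc3a2, Jdp2 (-2.06), Cebpb (-0.82) and Slc1a5 (-0.69) were also lower in 6 of 6 sets, and Slc38a2 (-0.23) was within.

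The chaperone to amino acid balance, the log2 ratio of the summed UMIs of the 14 chaperones to those of the 8 amino acid genes, put the contrast of the roles in 1 value per class. It was 3.47 in carcinoma cells (3.45 to 3.48, sets 3.12 to 3.63), 3.33 in macrophages and 3.39 in monocytic cells. Fibroblasts (4.24, sets 4.08 to 4.39) and osteoclast-like cells (3.95, sets 3.52 to 4.28) leaned to chaperones. So did the 59 pericytes (4.19) and the 68 endothelial cells (3.95). T cells (2.64, sets 2.33 to 2.95), dendritic cells (2.69) and mast cells and basophils (2.35) leaned to amino acid genes. The T cell sets did not overlap those of carcinoma cells or fibroblasts. NK cells, at 3.25, had sets from 2.47 to 4.08, which span most of that range. The most abundant gene weighs on these values. Without Hspa5 and Slc3a2 the balance was 3.73 in carcinoma cells, 3.32 in T cells and 4.79 in fibroblasts, and the order of these classes was the same. That order does not extend to the other classes, whose balance without these genes is not given here. In monocytic cells Slc3a2 was most of the amino acid sum, at 356 CPM against 21.6 for Mthfd2, so their balance rests mainly on that gene.

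**Figure D4:**
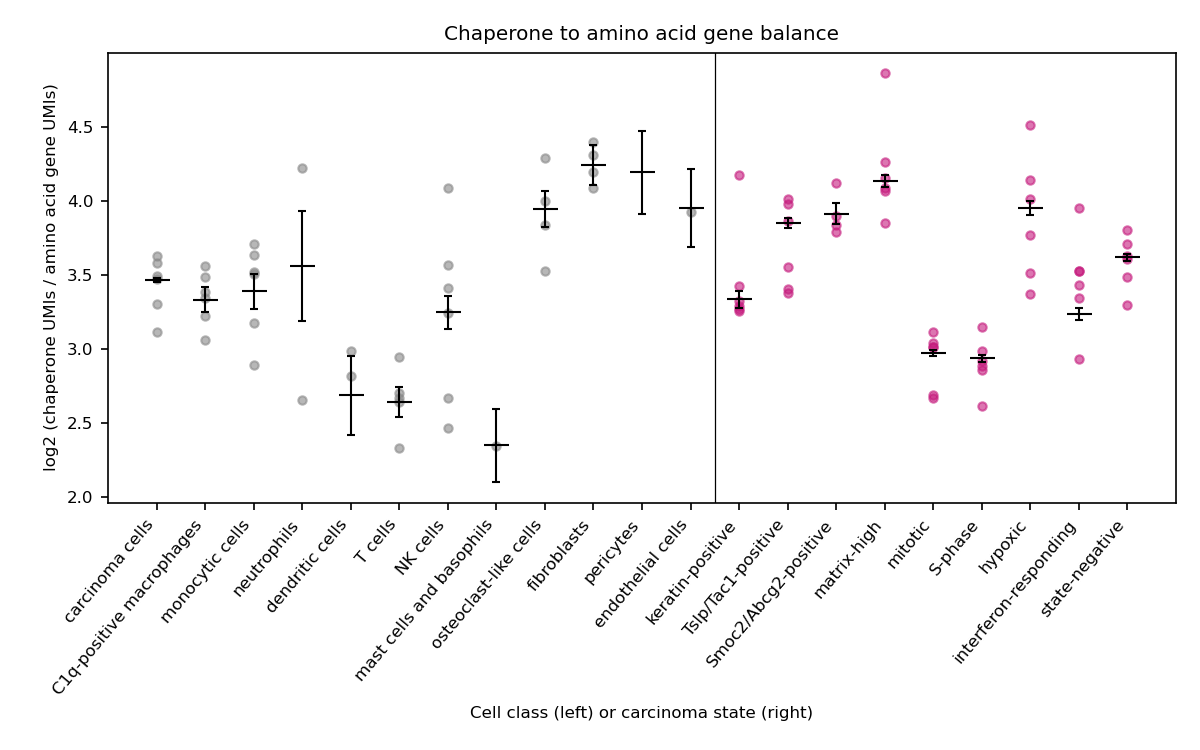
Log2 ratio of chaperone to amino acid gene UMIs in the cell classes of at least 50 cells (left) and in 8 carcinoma states and the state-negative cells (right); bars are pooled values with 95% intervals for counting error, and points are barcode sets with at least 20 cells. Mitotic (2.97) and S-phase (2.94) carcinoma cells lie below the state-negative cells at 3.62, and matrix-high cells (4.13) above.

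Within the 8935 carcinoma cells with at least 3000 UMIs, 8 states were cut from marker scores, none of which used the 34 genes, and each was set beside the 2605 state-negative cells of the same barcode sets. A state is a range of a score and states overlap: 57.4% of the 1206 S-phase cells were also mitotic. Within 20% of the cut, on either side of it, lay 630 cells for S-phase, 349 for mitotic, 784 for matrix-high and 747 for hypoxic. These counts include cells that fell short of a cut, so they are not shares of a state. The states themselves held 1951 mitotic, 1697 matrix-high and 899 hypoxic cells. The median S-phase score was 17.6 UMIs per 10000 in S-phase cells and 2.23 in state-negative cells, and the median hypoxia score was 21.1 in hypoxic cells and 4.51 in state-negative cells. The median mitotic score was 9.66 in S-phase cells and 0 in state-negative cells, and the median matrix score was 9.77 in S-phase, 12.4 in hypoxic and 12.5 in state-negative cells.

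In cycling carcinoma cells 5 of 8 amino acid genes were higher, while 13 of 14 chaperones were within 1.5-fold. In mitotic cells, where 8.67% of 12356 genes were higher and 13.3% lower, 5 of 8 amino acid genes were higher and 0 lower, and in S-phase cells (9.90% and 10.9%) the same 5 were higher. These were Mthfd2, Shmt2, Psat1, Phgdh and Slc7a5, each above 0 in 6 of 6 sets in both states. Mthfd2 was 111 CPM in S-phase cells (sets 92.4, 104 and 133) and 95.7 in mitotic cells (sets 84.4, 88.6 and 113), against 44.6 in state-negative cells (sets 30.1, 44.0 and 53.5). The sets of both cycling states lay wholly above those of state-negative cells, at log2 ratios of 1.34 and 1.07. Shmt2 was 50.7 CPM in S-phase against 25.4 in state-negative cells (ratio 1.04), and Psat1 137 against 75.6 (ratio 0.89). Asns, Slc3a2 and Aldh18a1 were within 1.5-fold in both. The 5 genes were also higher when cells of states other than mitotic and S-phase were left out. Cells in both cycling states were kept there, so neither cycling state was looked at free of the other. In mitotic cells all 5 passed without any single set, whereas in S-phase cells Slc7a5 (0.62) was within 1.5-fold without set 2, set 3 or set 6 (0.51 each). With doubled marker thresholds, 4 genes were higher in mitotic and 3 in S-phase cells. Of the chaperones, 0 were higher and 1 lower in each, Dnajb9, at 44.6 CPM in mitotic and 48.8 in S-phase cells against 101 (ratios -1.27 and -1.03, below 0 in 6 of 6 sets). The ISR regulators had 0 calls in either. Mitotic and S-phase cells were also the deepest, with median UMIs of 17455 and 17092.5 against 11032, and the part of depth was not tested. The nuclear RNAs Malat1 and Neat1, taken as signs of RNA quality, were lower in both states and below 0 in 6 of 6 sets, Malat1 at -0.84 in mitotic and -0.95 in S-phase cells and Neat1 at -0.65 and -0.74. Their summed level was 9953 CPM in mitotic cells (sets 7056 to 11524), 9034 in S-phase cells (sets 7720 to 10900) and 17271 (sets 14942 to 19853) in state-negative cells, and its part was not tested.

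Matrix-high carcinoma cells showed the reverse in the amino acid genes. With 14.2% of 11641 genes higher and 4.78% lower, 5 of 8 were lower in 6 of 6 sets: Phgdh (-1.48), Psat1 (-1.22), Asns (-0.87), Mthfd2 (-0.83) and Slc7a5 (-0.74). Phgdh was 16.1 CPM there (sets 0, 14.5 and 23.3) and 47.6 in state-negative cells (sets 33.7, 49.8 and 57.4), with no overlap. Asns was 16.1 CPM (sets 6.39, 15.6 and 18.2) against 28.4 (sets 22.7, 26.5 and 34.2), also with no overlap. The 14 chaperones had 0 calls and Ddit4 was higher (0.66), while Chac1 was lower (-0.80) from 36 counts, with sets from -1.67 to 1.68. Proliferation markers were rarer among them, as 4.60% of matrix-high cells were also mitotic against 21.8% of all gated carcinoma cells. Without cells of other states, the same 5 genes were lower. These 5 genes were also lower in fibroblasts than in carcinoma cells. Gated fibroblasts needed a Y-linked count and no Xist, so a fibroblast without Y-linked counts could be gated as a carcinoma cell. A cell cluster assigned to fibroblasts held 495 cells (Xist 361.8 CPM, Y-linked genes 125.5 CPM), against 185 gated fibroblasts. The part of such cells in the matrix-high values was not tested. Of the 9 early response genes, 4 were higher in matrix-high cells (Dusp1 0.82, Zfp36 0.70, Btg2 0.70 and Egr1 0.61), with a sum of 5949 CPM (sets 4462 to 7017) against 4397 (sets 3360 to 5007). Of the 11 cytosolic heat-shock genes, 3 were lower (Hspd1 -0.91, Hspb1 -0.86 and Hsp90aa1 -0.62), with a sum of 7471 CPM (sets 6241 to 9834) against 10477 (sets 9709 to 11815). Malat1 (0.50) and Neat1 (0.43) were within 1.5-fold and above 0 in every set. The part of these genes was not tested. In the 427 Smoc2/Abcg2-positive cells (11.8% and 2.46%) Slc7a5 (-0.87), Asns (-0.84), Phgdh (-0.71) and Shmt2 (-0.60) were lower, with sets on both sides of 0. Without set 2 or without set 4, Asns and Slc7a5 remained of these 4. Without cells of other states, Asns (-0.73) and Phgdh (-0.74) remained, Slc7a5 (-0.55) and Shmt2 (-0.49) were within, and Mthfd2 (-0.97) was lower. Sets 3 and 6 held 16 and 7 of the cells. Malat1 and Dusp1 were higher and Hspa1a lower in these cells. The sum of Malat1 and Neat1 was 28311 CPM (sets 24331 to 30414) against 17271 in state-negative cells (sets 14942 to 19853). The part of these genes in the Smoc2/Abcg2-positive values was not tested.

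Hypoxic carcinoma cells were the state with the most ISR regulators higher. With 8.75% of 10897 genes higher and 6.21% lower, 4 of 8 regulators were higher, each in 6 of 6 sets: Trib3 (1.47), Sesn2 (0.87), Ddit4 (0.74) and Ddit3 (0.71). Trib3 was 10.1 CPM (sets 3.47, 8.55 and 15.3) against 3.35 in state-negative cells (sets 1.79, 3.14 and 5.24), from 93 and 108 counts. Ddit3 was 112 CPM (106 to 120, sets 60.7, 104 and 159) against 62.8 (sets 28.9, 63.2 and 78.7). The sets of both genes overlapped between hypoxic and state-negative cells, although hypoxic cells were higher within each set. Sesn2 was 15.9 CPM (sets 11.8, 15.3 and 22.8) against 8.40 (sets 7.83, 8.29 and 9.72), without overlap. Atf4 (0.50) and Ppp1r15a (0.48) were above 0 in every set and within 1.5-fold. Without cells of other states, 2 of the 4 remained past 1.5-fold, Trib3 (2.00) and Sesn2 (0.80), with Ddit3 at 0.55 and Ddit4 at 0.33. Malat1 and Neat1 were within 1.5-fold in hypoxic cells. Their sum was 22797 CPM (sets 19161 to 25727) against 17271 in state-negative cells (sets 14942 to 19853), and its part was not tested.

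In the same hypoxic cells the chaperones had 0 calls, but Hspa5 was 1799 CPM against 1162, with its sets at 1287, 1423 and 2959. Its median ratio was 0.44 (sets 0.06 to 1.23), and the set at 2959 CPM was set 1. The chaperone sum ran from 4896 to 10683 CPM over the sets of hypoxic cells, the highest again set 1, against 4645 to 6164 in state-negative cells. Phgdh was lower (-0.72), at 28.5 CPM (sets 20.0, 29.7 and 36.8) against 47.6, and 0 amino acid genes were higher.

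The other states held few calls. Keratin-positive cells (428 cells, 12.2% and 12.5%) had Phgdh higher (0.68, above 0 in 6 of 6 sets) and Atf5 lower (-0.63, sets -1.33 to 1.15). Tslp/Tac1-positive cells (7.39% and 2.27%) had 0 calls among the 34, with Dnajb11 (0.31) and Manf (0.15) above 0 in every set. Interferon-responding cells (8.88% and 1.46%) had Chac1 higher (0.63) from 68 counts, with sets from -0.20 to 1.86, and Ddit3 at 0.27, above 0 in 6 of 6 sets.

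**Figure D5:**
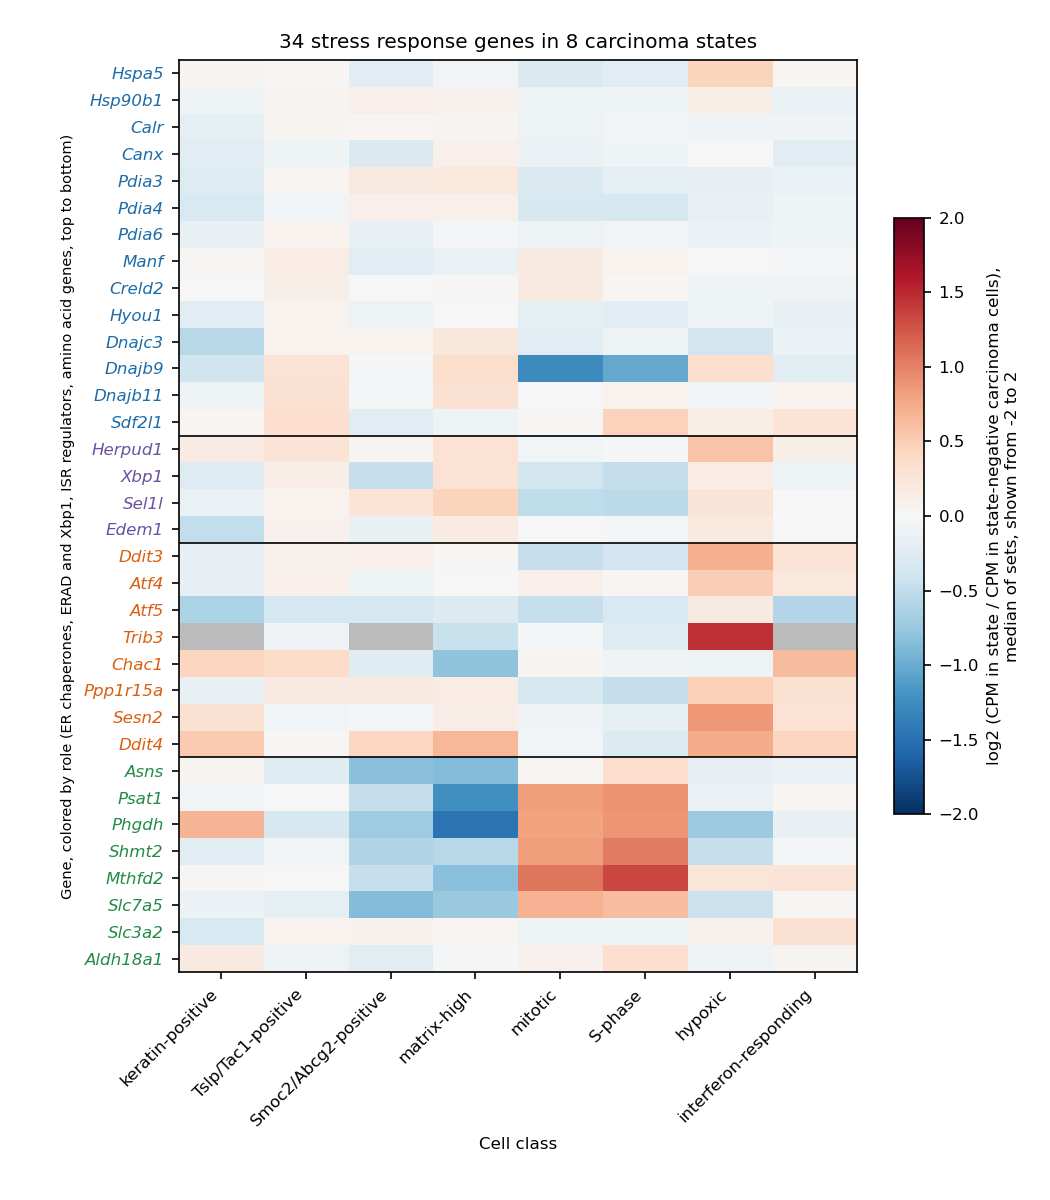
Log2 ratio of the CPM in each of 8 carcinoma states (columns) to that in state-negative carcinoma cells, as the median over barcode sets, for the 34 genes (rows, by role). Grey marks ratios from fewer than 50 counts in all or that 3 counts or fewer per set decide. Mthfd2, Shmt2, Psat1, Phgdh and Slc7a5 are red in mitotic and S-phase cells, Phgdh, Psat1, Asns, Mthfd2 and Slc7a5 are blue in matrix-high cells, Trib3, Sesn2, Ddit4 and Ddit3 are red in hypoxic cells, and Dnajb9 is the chaperone past 1.5-fold, blue in mitotic and S-phase cells.

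Across single carcinoma cells, thinned to 5000 UMIs each (8099 cells), correlations were weak. These values are Pearson correlations across cells within a set, given as the median of the 6 sets and as a description, since cells of a set share a library and small counts hold every r near 0. Over 91 chaperone pairs the median r was 0.11, the highest being 0.36 for Hsp90b1 with Calr (sets 0.31 to 0.42), followed by 0.28 for Hsp90b1 with Pdia6 and with Manf. Hspa5 had r of 0.27 with Manf, 0.26 with Calr and 0.20 with the ERAD gene Herpud1. Over 112 pairs of a chaperone and an amino acid gene the median r was 0.01, and over 28 amino acid pairs it was 0.08. The summed chaperones had r of 0.25 with the summed ERAD genes, 0.08 with the ISR regulators and 0.03 with the amino acid genes.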

How the data were processed

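A single matrix of UMI counts for all tumors was deposited by the authors; its header names Cell Ranger 7.0.0, the submitters' processing notes Cell Ranger 7.1 with build mm10, and the series text Seurat 4.1.0. The 12 tag rows were not used. The 34 genes and all lists were chosen with earlier results of these data known. Filters of 500 detected genes and 15% mitochondrial counts left out 1050 cells. Scrublet in scanpy 1.11.5 marked 0.218% of the rest as doublets, which is too low for the caller to have worked, so doublets may remain. Cells were gated on marker UMIs per 10000 UMIs, with at least 2 marker UMIs and, for carcinoma states, 3000 UMIs. These thresholds, and the rule that a ratio set by 3 counts or fewer per set is not called, were chosen after seeing the data. Counts were summed per class and barcode set and scaled to CPM; a ratio needs 50 counts in all and uses a floor of 3 counts. Set levels and ratios against single classes need 20 cells of a class in the set, and ratios of carcinoma states 5. Pooled levels carry exact 95% Poisson intervals. No p-value was computed, and the planned tests of treated against vehicle tumors were not run, since no set is tied to a tumor. All 34 genes are accounted for; values are spelled out for the 4 most abundant and the 3 most variable of each role, and for the 3 most abundant and the 2 with the largest ratio of each further list, except 1 gene not reported here, and other genes named were chosen after their values were seen. Scripts were tested on simulated counts. Promoters are from RefSeq (GRCm38.p6). Alternatives changed the cell filter, scaling, gating, weighting of sets, low-count filter, fold limit and the sets included, with numpy 2.4.6 and scipy 1.17.1.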

Additional observations from a re-analysis of the deposited data

How the results depend on the processing

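No called ratio of the 34 members in carcinoma against all other cells changed sign; ratios against single classes and of genes outside the 34 were not recomputed one by one. A count was taken as close within 1.5 times the reported one, and a balance or a ratio within its 95% counting interval. Under alternatives other than leaving out a set, 288 counts and balances stayed close and 39 moved, and 216 ratios of single members stayed close and 56 moved. Leaving out single sets, 192 counts and balances stayed close and 24 moved, and 156 ratios stayed close and 48 moved. The 3 higher amino acid genes, Edem1, Chac1, Ppp1r15a, Sesn2 and Ddit4 passed 1.5-fold in all 14 alternatives computed for single members. No paired analysis was possible because no barcode set is tied to a tumor or a replicate number, and the planned fits of treated against vehicle tumors (TMM, DESeq2, block, leave-one-out) were not run. Under the looser cell filter (200 genes, 25% mitochondrial counts) 1 sensor and 1 further ERAD gene were higher. Under the stricter one (1000 genes, 10%) 0 chaperones and 1 ERAD member were lower and 1 further ER folding gene higher. Scaled without mitochondrial and ribosomal protein genes, 0 chaperones and 1 ERAD member were lower, 1 sensor was higher and 5 members were highest in T cells. With Leiden clusters, 1 sensor was higher, 1 member was highest in macrophages and 3 in NK cells, and the fibroblast balance was 3.937. With the other weighting over sets, 2 members were highest in macrophages, the carcinoma balance was 3.482 and chaperone calls over the 8 states numbered 4. Without the low-count filter 1 further ERAD gene was lower. Called at 2-fold, 0 chaperones and 1 ERAD member were lower, 0 ISR regulators were higher and 0 lower, 1 sensor was lower, 0 further ER folding genes were higher and 1 lower, 0 further ERAD genes and 0 synthetases were higher, and 2 further ATF4 targets were higher and 3 lower. Without the most abundant member of each role the balance was 3.73 in carcinoma cells, 3.32 in T cells and 4.79 in fibroblasts. In alternatives added after seeing the data, host-gated cells alone gave 1 amino acid gene lower, 1 sensor higher, 6 further ER folding genes higher and 2 ER translocation genes higher. States without cells of other states gave 2 ISR regulators higher in hypoxic cells. Doubled marker thresholds gave 1 sensor higher, 3 amino acid genes higher in S-phase cells and 7 chaperone calls over the states. Leaving out each set in turn gave 0 to 1 chaperones lower (0 without set 2, 5 or 6), 1 to 2 ERAD members lower (1 without set 3, 4 or 5), 0 to 1 sensors higher (1 without set 1, 2 or 5), 2 to 4 further ER folding genes higher (4 without set 2, 3 or 5), 1 to 2 further ERAD genes higher (1 without set 1, 3 or 6) and 0 to 1 lower (1 without set 2). It gave 3 to 5 members highest in T cells (5 without set 3), 0 to 1 highest in macrophages (1 without set 6) and 2 to 5 amino acid genes lower in Smoc2/Abcg2-positive cells (2 without set 2 or set 4). The balance ran from 3.41 to 3.55 in carcinoma cells and from 2.56 to 2.75 in T cells, where 2.75 was the value without set 6. The causes were not tested. Depth limits the host classes most, with 1 to 7 counts of Chac1 in each large host class.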

Other observations

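The 28 B-lineage cells, 16 of them in barcode set 6, held the highest chaperone sum of any class, at 9614 CPM. Hsp90b1 was 3167 CPM (2860 to 3497) and Hspa5 2241 CPM (1984 to 2522) there, and Creld2 was 349 CPM against 46.5 in NK cells, the highest of the large classes. Xbp1, known to be required for plasma cell secretion, was 503 CPM and Herpud1 520 CPM. Markers of plasma cells summed to 7308 CPM in these cells, with 6 of 8 detected. No set other than set 6 held more than 4 of these cells.

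The barcode sets carry no group, so their values are given singly. The sum of the 8 ISR regulators in monocytic cells was 733, 862, 838, 665, 698 and 1632 CPM in sets 1 to 6, and in macrophages 701, 596, 1131, 718, 735 and 1231. In NK cells it was 635, 582, 802, 597, 722 and 894, and in T cells of sets 2 to 6 it was 648, 596, 591, 464 and 1044. Set 6 was thus the highest in all 4 host classes, whereas in carcinoma cells the values were 461, 397, 471, 451, 500 and 488. Among single regulators in monocytic cells, Ddit3 was 31.7, 11.7, 34.4, 58.3, 42.1 and 214 CPM and Atf4 178, 264, 253, 263, 214 and 673. Ppp1r15a was 440, 499, 528, 306, 388 and 700 CPM there. The amino acid transporter chain Slc3a2 followed, at 372, 264, 230, 313, 334 and 575 CPM. Cytosolic heat-shock genes, a list of 11, summed to 14869 CPM in T cells of set 6 and to between 7326 and 8849 in sets 2 to 5. In NK cells the sum was 16539 CPM in set 6 and between 5259 and 8580 in the others. In carcinoma cells of set 6 it was 10156 CPM, inside the range of 9116 to 12499. The 9 early response genes summed to 10529 CPM in monocytic cells, 5826 in T cells and 5139 in NK cells of set 6, each the highest set of its class, whereas in macrophages set 6 (9406 CPM) lay below set 3 (10404 CPM). Their part in the ISR values was not tested.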
